A study of Mus musculus with 18 samples.

Results

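The Double-Het lungs, which carry Falcor+/- together with Foxa2+/-, were compared with Falcor-/- lungs, using 9 of the 18 libraries of the study. The 4 Double-Het libraries (replicates 15 to 18) and the 5 Falcor-/- libraries (replicates 6 to 10) were chosen by their genotype labels alone. Of 15544 genes with values, the 15249 with a mean of 6 or more log2 units over the 18 libraries were tested. The other 9 libraries, 5 wild-type and 4 Foxa2+/-, served to set levels beside the comparison. Mice were 10 to 12 weeks old, and total RNA came from lung cells caught on magnetic beads through the epithelial surface protein EpCAM. Both genotypes compared carry a Falcor mutation, on 1 of 2 alleles in Double-Het and on both in Falcor-/-, and of these 2 genotypes Double-Het alone carries the Foxa2 mutation. A difference between them can therefore come from either locus, and the 2 cannot be told apart within this pair. How the alleles were made, in which cells they act, the strain and the sex are not stated in the labels, nor is it said that each library is a separate animal, so p-values measure the spread between libraries.

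Foxa2 is a forkhead transcription factor of lung epithelium and other tissues of endodermal origin, and in mouse airways its loss is known to bring mucus-producing goblet cells. Forkhead factors bind DNA at sites with a core that resembles TGTTTAC. Falcor, annotated as 9030622O22Rik, is a long non-coding RNA gene that lies next to Foxa2 on chromosome 2. The lung epithelium consists of flat type 1 and surfactant-producing type 2 alveolar cells, and, in the airways, of club, ciliated, mucous, basal and neuroendocrine cells. Endothelial cells, fibroblasts, smooth muscle and blood cells are not epithelial and do not normally carry EpCAM.

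The RefSeq sequences upstream of the 2 targeted genes are shown because Falcor RNA had the largest rise of all genes tested and Foxa2 is the other mutated locus. Each window holds the 250 bases before the start site nearest to the annotated gene start, on build GRCm38.p6, written 5′ to 3′ on the gene's strand, here the minus strand. Capitals mark a forkhead-like motif on either strand: TGTTTAC, its variant with a G, TGTTTGC, or the form TATTTAC. A window can hold more than 1 of them.
Falcor, chr2:148040349-148040598: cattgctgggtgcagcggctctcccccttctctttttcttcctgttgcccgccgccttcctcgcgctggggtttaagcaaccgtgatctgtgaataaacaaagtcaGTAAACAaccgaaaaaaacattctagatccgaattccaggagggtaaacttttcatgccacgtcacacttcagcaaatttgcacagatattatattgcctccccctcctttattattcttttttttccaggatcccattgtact
Foxa2, chr2:148046970-148047219: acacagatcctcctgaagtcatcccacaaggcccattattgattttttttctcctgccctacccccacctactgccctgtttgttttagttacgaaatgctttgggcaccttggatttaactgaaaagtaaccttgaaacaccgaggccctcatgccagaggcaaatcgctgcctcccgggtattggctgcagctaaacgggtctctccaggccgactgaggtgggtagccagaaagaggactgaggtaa
The Falcor window held 1 match, to TGTTTAC on the reverse strand, and the Foxa2 window held none of the 3 motifs.

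Falcor RNA separated the genotypes without overlap and by more than any other gene tested. Its log2 level was 11.61, 11.65, 11.86 and 11.50 in the Double-Het libraries and 6.13, 5.39, 6.01, 7.27 and 6.23 in the Falcor-/- libraries. All 4 Double-Het libraries were thus high and close together, and all 5 Falcor-/- libraries were low. The difference was 5.45 (SE 0.29, adjusted p = 1.02e-08), or 43.8-fold. The exact 2-sided permutation p was 0.00794, the smallest that 4 against 5 libraries can give. Foxa2+/- libraries, whose label names no Falcor mutation, stood at 11.70 ± 0.21 (SD, n = 4), beside 11.66 ± 0.15 (SD, n = 4) in Double-Het. Wild-type libraries stood at 10.18 ± 0.48 (SD, n = 5), so that the Double-Het libraries, labelled with 1 mutated Falcor allele, lay above all 5 wild-type libraries.

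Foxa2 RNA was lower in Double-Het by a small margin, and the genotypes overlapped. Levels were 12.58, 12.34, 12.40 and 12.11 in Double-Het and 12.85, 12.58, 12.99, 12.83 and 12.42 in Falcor-/-, with Falcor-/- replicates 7 and 10 inside or at the edge of the Double-Het range. The difference was -0.37 (SE 0.10, adjusted p = 0.0464), so that Double-Het held 77.2% of the Falcor-/- level. The exact permutation p was 0.0317. This call passed the threshold narrowly and was lost in 6 of 9 fits that left out 1 library (Double-Het replicate 16, 17 or 18, or Falcor-/- replicate 6, 8 or 9), with differences from -0.45 to -0.29 over the 9 fits. Beside these, Foxa2+/- libraries averaged 12.39 and wild-type libraries 12.97. Of the related forkhead genes, Foxa1 differed by 0.36 (adjusted p = 0.0693) and Foxa3, a forkhead gene that is expressed in mucous cells, by 0.90 (adjusted p = 0.097), and neither passed the test.

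**Figure D1:**
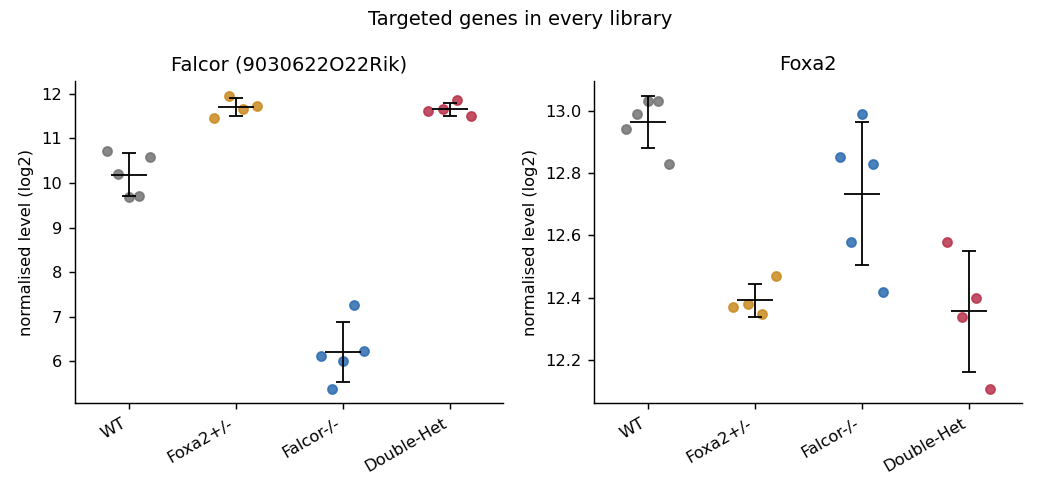
Log2 levels of Falcor (left) and Foxa2 (right) in every library, by genotype; points are libraries, the dash is the group mean and bars are 1 SD. The vertical axes do not start at 0. Falcor is low in the 5 Falcor-/- libraries only, while for Foxa2 the Double-Het and Falcor-/- libraries overlap.

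Around the 2 genes, Thbd and Cd93 were lower in Double-Het and 4 other neighbours did not pass. Thbd (thrombomodulin) differed by -1.81 (adjusted p = 0.00475) and Cd93 by -1.87 (adjusted p = 0.0187). Both are endothelial surface proteins and stand in the endothelial list as well. The remaining measured neighbours Xrn2, Nxt1, Gzf1 and Napb differed by -0.09, -0.17, 0.38 and 0.33. Thus no neighbour that is not an endothelial marker passed the test.

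Across the 15249 genes, 785 differed between the genotypes at an adjusted p below 0.05, which is 5.15% of those tested. Of these, 328 were higher in Double-Het (2.15% of the genes tested) and 457 were lower (3.0%). The rises were smaller than the falls: the median difference was 0.54 among the genes called higher and -1.32 among those called lower, and 0.02 over all genes. A difference of 1 log2 unit or more was found for 75 of the higher and 297 of the lower genes. The libraries of the genotypes did not overlap for 1130 genes (7.41%), and 626 of the 785 called genes were among them. Without Double-Het replicate 17 the count was 412, without Falcor-/- replicate 10 it was 425 and without Falcor-/- replicate 7 it was 1233, so 3 single libraries each moved it by over 1.5 times. In the fit of the 9 libraries alone it was 342, of which 82 were higher and 260 lower.

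**Figure D2:**
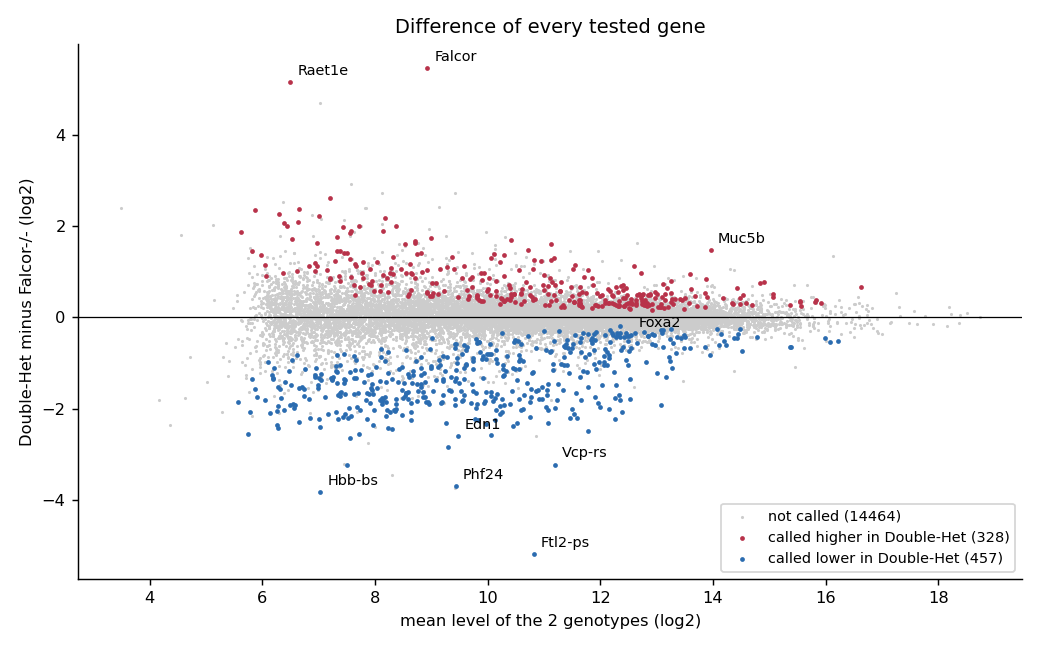
Difference (Double-Het minus Falcor-/-, log2) of each tested gene against its mean level in the 2 genotypes (log2). Red points are the 328 genes called higher, blue the 457 called lower and grey the rest; Falcor and Raet1e are the highest red points.

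The deposited values gave all 18 libraries the same distribution, with medians of 11.03. Of 3 epithelial identity genes none passed the test: Epcam stood at 14.19 in Double-Het and 14.17 in Falcor-/-, the adherens junction gene Cdh1 at 15.70 and 15.51, and the lung transcription factor Nkx2-1 at 15.69 and 15.46. Of 30 epithelial junction genes, 1 was called, higher, or 3.33% beside 5.15% of all genes. Yet 26 of the 30 differences were positive, with a median of 0.10, and 10 had an unadjusted p below 0.05. Library means of that list were 13.21 to 13.36 in Double-Het and 12.96 to 13.18 in Falcor-/-. The surfactant gene Sftpc had the top value of every library of both genotypes, 18.73, so its difference of 0 follows from the normalization. Genes of non-epithelial cells were also measured in all libraries, including endothelial Cdh5, with 11.36 in Double-Het and 13.42 in Falcor-/-. The mean level of 30 endothelial genes was 9.98, 9.71, 10.07 and 10.44 in the Double-Het libraries and 11.71, 11.31, 10.90, 11.59 and 12.74 in the Falcor-/- libraries, where replicate 10 was highest. It was 10.37 to 10.80 in Foxa2+/- and 11.56 to 12.92 in wild type. The 24 mesenchymal genes averaged 9.17, 8.91, 9.0 and 8.96 in Double-Het and 10.41, 9.94, 9.86, 10.29 and 11.30 in Falcor-/-, again highest in replicate 10. In bulk RNA, fewer cells of a type and less RNA per cell cannot be told apart.

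**Figure D3:**
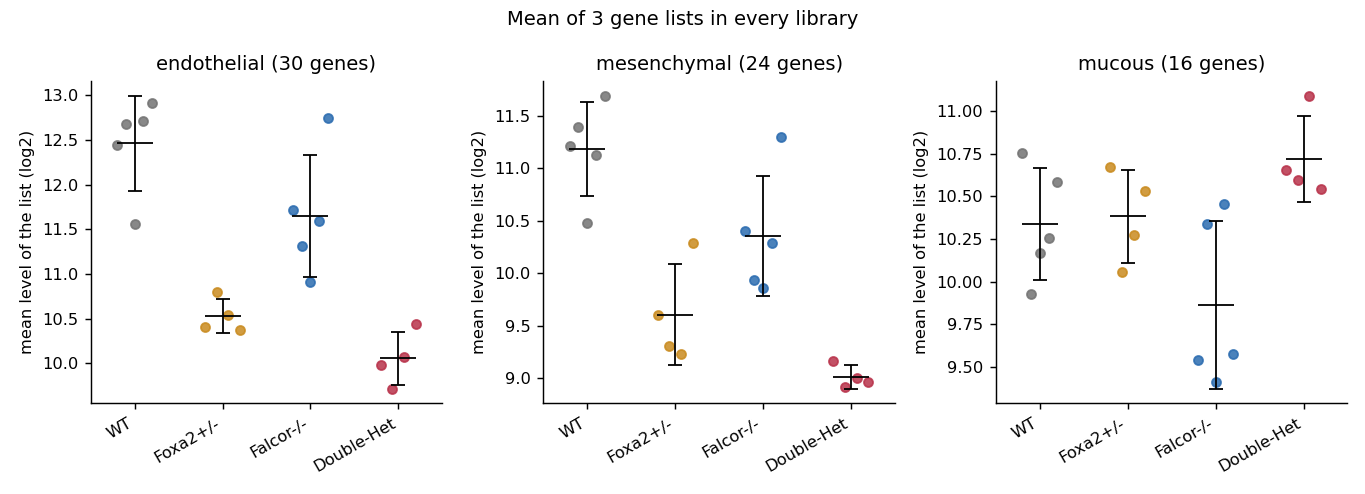
Mean log2 level of the endothelial, mesenchymal and mucous lists in every library, by genotype; points are libraries, dashes are group means and bars are 1 SD. The vertical axes do not start at 0. Double-Het libraries lie below all Falcor-/- libraries for the first 2 lists and above all of them for the mucous list.

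Most endothelial genes fell. Of 30 tested, 23 fell and none rose, where 3.0% of all genes fell, with a median difference of -1.78 beside 0.02 over all genes, and 20 to 25 fell when single libraries were left out. Cldn5, a tight junction protein of blood vessels, stood at 10.82, 10.42, 10.32 and 10.61 in Double-Het and 12.91, 12.36, 12.44, 13.20 and 14.26 in Falcor-/-, a difference of -2.49 (SE 0.36, adjusted p = 0.00272). All 5 Falcor-/- libraries were above all 4 Double-Het ones. Cdh5, the vascular cadherin, fell by 2.06 (adjusted p = 0.00448) and the transcription factor Sox17 differed by -1.99 (adjusted p = 0.00448). The 7 members that did not pass were Lyve1, Aplnr, Car4, Vwf, Esam, Kdr and Prox1, and all 7 had negative differences. In wild type, Cldn5 averaged 13.48 and in Foxa2+/- 11.01, so the Falcor-/- level lay nearer to wild type and the Double-Het level nearer to Foxa2+/-. With the endothelial mean of each library added to the model, 0 of the 30 passed and their median was -0.07, as that covariate is built from these genes.

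Some mesenchymal and matrix genes fell as well. Of 24 mesenchymal genes, 13 fell, none rose and the median was -1.26, where 3.0% of all genes fell. Of 24 genes of elastic fibres and matrix, 6 fell, none rose and the median was -0.91. The mesenchymal count was 13 or 14 without any single library, while the matrix count was 4 without Double-Het replicate 16, Falcor-/- replicate 6 or Falcor-/- replicate 10 and 9 without Falcor-/- replicate 8. Postn (periostin, a matrix protein) had levels of 8.47, 7.17, 8.10 and 7.76 in Double-Het and 10.61, 10.23, 9.97, 10.67 and 12.07 in Falcor-/-, with no overlap and a difference of -2.84 (SE 0.42, adjusted p = 0.00277). Mfap4, a microfibril protein that stands in both lists, fell by 2.31 (adjusted p = 0.00307), Inmt, a methyltransferase abundant in lung fibroblasts, differed by -2.21 (adjusted p = 0.00311), and Dpt, which encodes dermatopontin, by -2.0 (adjusted p = 0.00336). The other matrix genes that fell were Sparcl1, Bgn, Ltbp1 and Ltbp2. Of the collagen genes of the mesenchymal list, Col1a1, Col1a2, Col3a1, Col6a1, Col6a2 and Col6a3, none passed.

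Red cell genes had some of the largest falls. Hbb-bs, a beta globin gene, had log2 levels of 5.56, 5.18, 4.29 and 5.42 in Double-Het and 8.30, 7.97, 8.81, 9.49 and 10.12 in Falcor-/-, a difference of -3.83 (SE 0.51, adjusted p = 0.00202). The alpha globin gene Hba-a1 differed by -3.22 (SE 0.56, adjusted p = 0.00448). Neither gene's genotypes overlapped, though both have near-identical copies with which reads can be shared. With the platelet chemokine Pf4, 3 of the 5 red cell and platelet genes tested fell, where 3.0% of all genes fell. Wild-type libraries averaged 8.71 for Hbb-bs and Foxa2+/- libraries 6.74.

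The remaining large falls include genes known from vessels, smooth muscle or fibroblasts. Dach1 (a transcription cofactor) differed by -2.65 (adjusted p = 0.00233), Akap12 (a kinase-anchoring scaffold) by -2.58 (adjusted p = 0.00272), Apold1 (an endothelial early response gene) by -2.55 (adjusted p = 0.00658) and Gucy1b1 (a subunit of the nitric oxide receptor) by -2.42 (adjusted p = 0.00345). Higd1b, a pericyte gene, differed by -2.56 (adjusted p = 0.0104), Bmper, a secreted regulator of BMP signalling, by -2.41 (adjusted p = 0.00307), Colq, the collagen tail of acetylcholinesterase, by -2.40 (adjusted p = 0.00389), and Nes (nestin, an intermediate filament) by -2.38 (adjusted p = 0.00311). The libraries of the 2 genotypes did not overlap for any of these 8, and each call held in all 9 fits that left out a library. Pla2g7, a secreted phospholipase of macrophages, differed by -2.45 (adjusted p = 0.0346), but 7 of those 9 fits lost this call, all but those without Falcor-/- replicate 6 or 8. Acer2, a ceramidase, and Gjc1, a gap junction protein of vascular smooth muscle, were among the 10 genes with the smallest p, at -2.19 (adjusted p = 0.00233) and -2.12 (adjusted p = 0.00233). The endothelial and mesenchymal means given above were likewise lower in Double-Het than in Falcor-/-, and the part of cell composition in these genes was not tested. Over the 4 genotypes, Apold1 and Pla2g7 did not follow those means. Apold1 averaged 8.99 in Falcor-/-, 6.44 in Double-Het, 6.72 in wild type and 7.31 in Foxa2+/-. Against wild type it was higher in Falcor-/- by 2.27 (adjusted p = 0.0122). Pla2g7 averaged 11.55 in Foxa2+/- and 11.35 in wild type, beside 9.52 in Falcor-/- and 7.08 in Double-Het.

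Edn1, which encodes the vasoconstrictor endothelin-1, was among the 10 genes with the smallest p. Its levels were 8.20, 8.01, 8.08 and 8.42 in Double-Het and 10.76, 10.51, 10.52, 10.53 and 11.51 in Falcor-/-, where replicate 10 was highest. The difference was -2.59 (SE 0.25, adjusted p = 3.38e-05), with an exact permutation p of 0.00794. Foxa2+/- libraries averaged 9.76 and wild-type libraries 11.21, so Double-Het had the lowest mean of the 4 genotypes. With the endothelial mean as a covariate the difference was -1.46 (SE 0.22, adjusted p = 0.025), and Edn1 was 1 of only 4 genes called in that fit, with Falcor, Phf24 and Vcp-rs.

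Genes of TGF-beta, BMP and YAP signalling that passed the test were all lower in Double-Het. In that list, 8 of 31 fell and none rose, or 25.8%, where 3.0% of all genes fell. These were the ligand Bmp6, the inhibitory Smad6 and Smad7, and the BMP targets Id1 and Id3. The others were the YAP targets Ccn1 and Ccn2 and the transcription factor Snai1. Only 4 fell without Double-Het replicate 17. Snai1, a repressor of epithelial genes, stood at 6.41, 6.50, 6.60 and 6.45 in Double-Het and 7.85, 8.08, 8.13, 8.05 and 8.84 in Falcor-/-, a difference of -1.70 (SE 0.18, adjusted p = 0.000119) with no overlap. Its Foxa2+/- mean was 7.70 and its wild-type mean 8.07, so that Double-Het again had the lowest mean. Bmp6 differed by -2.11 (adjusted p = 0.00542) and Ccn1 by -1.34 (adjusted p = 0.00398). The receptors and mediators Tgfbr1, Tgfbr2, Bmpr1a, Bmpr2, Smad2, Smad3 and Smad4 did not pass, and the list's median was -0.15.

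Of the immediate early genes, which tissue dissociation can induce, those that passed the test were lower in Double-Het. Of 28 tested, 11 fell and none rose, where 3.0% of all genes fell, with a median of -0.44, and their mean level was 13.37 to 13.70 in Double-Het and 13.83 to 14.16 in Falcor-/- libraries. The count was 7 without Double-Het replicate 17 and 6 without Double-Het replicate 18 or Falcor-/- replicate 10. Fos, a subunit of the AP-1 factor, had levels of 15.93, 15.72, 15.92 and 15.70 in Double-Het and 16.50, 16.47, 16.35, 16.07 and 16.33 in Falcor-/-, a difference of -0.53 (SE 0.11, adjusted p = 0.00831). Jun, its partner, differed by -0.52 (adjusted p = 0.0051). Dusp2, a phosphatase of MAP kinases, had the largest fall of the list, -1.45 (adjusted p = 0.00448), and Klf2, a flow-responsive endothelial factor, differed by -1.21 (adjusted p = 0.00332). Klf4, which also stands among the lung transcription factors, differed by -0.67 (adjusted p = 0.0165). Egr1, Nr4a1, Fosb and Myc did not pass. Wild-type libraries averaged 13.65 for the list, from 13.30 to 14.12, and Foxa2+/- libraries 13.93, beside 13.51 in Double-Het and 13.98 in Falcor-/-. In the fit with the endothelial covariate 0 of the 28 passed. The list's median there was -0.61 and Fos differed by -0.73 (SE 0.17, adjusted p = 0.279). That covariate is itself lower in every Double-Het library than in any Falcor-/- library, and the part of cell composition in these genes was not tested.

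Of 29 genes of NF-kB signalling and cytokines, 4 fell and none rose, which is 13.8% of them, where 3.0% of all genes fell. They were Nfkbia, the inhibitor that NF-kB induces, the neutrophil chemokines Cxcl1 and Cxcl2, and the adhesion molecule Icam1. Icam1 differed by -0.45 (SE 0.10, adjusted p = 0.0125), Nfkbia by -0.74 (adjusted p = 0.00664), Cxcl1 by -1.11 (adjusted p = 0.0147) and Cxcl2 by -1.56 (adjusted p = 0.0193). The count was 2 without Double-Het replicate 15. Pde4b, a cyclic AMP phosphodiesterase and 1 of the 10 genes with the smallest p, differed by -1.05 (SE 0.14, adjusted p = 0.00202).

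Notch, FGF and Wnt genes split in direction. Of 21 Notch genes, Rbpj, the transcription factor at the pathway's end, rose by 0.65 (SE 0.10, adjusted p = 0.00311), from 12.15, 12.27, 11.92, 12.17 and 12.15 in Falcor-/- to 12.76, 12.67, 12.78 and 12.93 in Double-Het. The receptor Notch4, the ligands Dll1 and Dll4 and the target Hey1 fell, with differences of -0.97, -1.46, -1.12 and -0.92. Notch4 and Dll4 are known from endothelium, and of the list's falls 1 passed without Double-Het replicate 15 or Falcor-/- replicate 10 and 2 without Double-Het replicate 16 or 17 or Falcor-/- replicate 6, against 6 without Falcor-/- replicate 7 or 8. For Rbpj, Foxa2+/- averaged 12.92 and wild type 12.96, so it was the Falcor-/- libraries that lay below the other genotypes. Of 25 genes of FGF, EGF and hedgehog signalling, the receptor Erbb2 rose by 0.32 (adjusted p = 0.014), a call lost without Double-Het replicate 17, while Fgf7, Fgfr4 and the feedback inhibitors Spry4 and Dusp6 fell, and 5 of this list rose without Falcor-/- replicate 7. Of 30 Wnt genes, the ligand Wnt7b was called higher, by 0.78 (adjusted p = 0.0437), and the inhibitors Nkd2 and Wif1 lower, but each of these 3 calls was lost in 6 or 7 of 9 fits, among them those without Double-Het replicate 15, 16 or 17 or Falcor-/- replicate 6, 9 or 10. Without Falcor-/- replicate 7, 4 Wnt genes rose, in a fit where 659 of the 15249 genes tested rose.

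**Figure D4:**
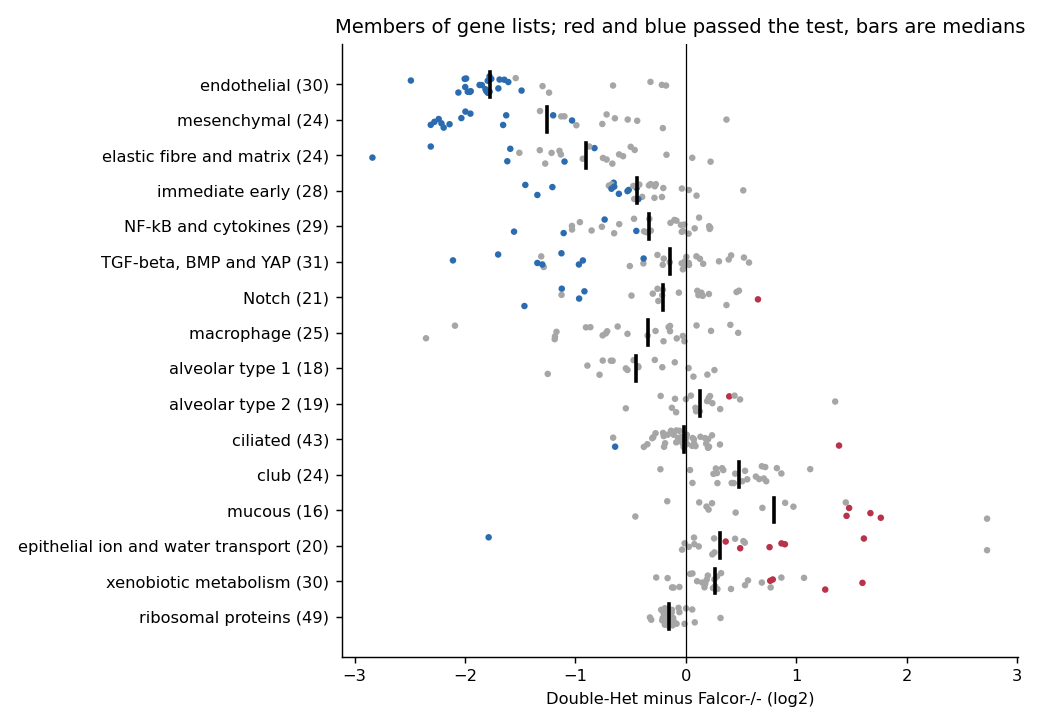
Differences (Double-Het minus Falcor-/-, log2) of the members of 16 gene lists; the number in brackets is the count of genes tested, red points were called higher, blue called lower and grey not called, and black bars are medians. Endothelial and mesenchymal members lie mostly below 0 and mucous members mostly above it.

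Some mucous cell genes rose in Double-Het. Of 16 tested, 4 rose and none fell, where 2.15% of all genes rose, with a median of 0.80, and the mean level of the list was 10.65, 10.59, 11.09 and 10.54 in Double-Het and 9.54, 10.34, 9.41, 10.45 and 9.58 in Falcor-/-. Muc5b, a gel-forming airway mucin, had levels of 14.24, 14.22, 15.75 and 14.58 in Double-Het and 12.98, 14.20, 12.35, 14.0 and 12.56 in Falcor-/-, a difference of 1.48 (SE 0.39, adjusted p = 0.0376). The libraries did not overlap, although Falcor-/- replicates 7 and 9 came within 0.21 of the lowest Double-Het library. Muc5ac, the mucin induced in goblet cells, had levels of 9.56, 9.15, 10.30 and 9.19 in Double-Het and 7.49, 8.90, 7.06, 8.70 and 7.26 in Falcor-/-, a difference of 1.67 (SE 0.42, adjusted p = 0.0262). Ern2, an endoplasmic reticulum stress sensor of mucous cells, rose by 1.45 (adjusted p = 0.0171), and Fut2, a fucosyltransferase that decorates mucins, by 1.76 (adjusted p = 0.0315).

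Within the mucous list, Falcor-/- replicates 6, 8 and 10 were low and replicates 7 and 9 were higher, for Muc5b and Muc5ac alike. The number that passed was 0 without Falcor-/- replicate 10, 0 without Double-Het replicate 17, 1 without Falcor-/- replicate 6, and 6 without Falcor-/- replicate 9. It was also 0 in the fit of the 9 libraries alone and 0 with the endothelial covariate, where Muc5ac differed by 1.65 (adjusted p = 0.765). Wild-type libraries averaged 14.37 for Muc5b and 9.0 for Muc5ac, and Foxa2+/- libraries 14.86 and 9.48. Against wild type, whose libraries both comparisons share, Muc5b differed by 0.32 in Double-Het (adjusted p = 0.606) and by -1.15 in Falcor-/- (adjusted p = 0.0551). The largest difference of the list, for Clca1, a goblet cell secreted protein, was 2.73 with a 95% confidence interval of 0.03 to 5.42 and did not pass. The goblet cell factor Spdef (0.45) and the mucin-folding protein Agr2 (0.69) did not pass either.

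Ion and water transport genes of epithelium were mostly higher in Double-Het where they passed the test. Of 20 tested, 6 rose, where 2.15% of all genes rose. They were Slc26a4 (pendrin, an anion exchanger), Slc4a4 (a bicarbonate cotransporter) and Aqp4 (a basolateral water channel). The others were Kcne3 (a potassium channel subunit), Slc12a2 (a chloride cotransporter) and Scnn1a (a subunit of the epithelial sodium channel). Aqp1, a water channel of endothelium, fell by 1.79 (adjusted p = 0.00799). Slc26a4 had levels of 9.68, 8.08, 10.11 and 9.48 in Double-Het and 7.12, 7.97, 8.28, 7.06 and 8.19 in Falcor-/-, a difference of 1.61 (SE 0.44, adjusted p = 0.0428). Aqp4 differed by 0.87 (adjusted p = 0.0238), Slc4a4 by 0.90 (adjusted p = 0.0184) and Scnn1a by 0.36 (adjusted p = 0.0354). The number that rose was 0 without Double-Het replicate 17, 1 without Falcor-/- replicate 10, 2 without Falcor-/- replicate 6 and 3 without Double-Het replicate 15 or 18. It was also 0 in the fit of the 2 genotypes alone and 0 with the endothelial covariate, where the list's median was 0.33 beside 0.31 without it. Cftr, the chloride channel, differed by 0.52 and did not pass. Against wild type, none of the 6 was called in Double-Het, with adjusted p from 0.0544 (Scnn1a) to 0.693 (Slc12a2). In Falcor-/-, Aqp4 (-0.68, adjusted p = 0.0442) and Slc12a2 (-0.41, adjusted p = 0.0394) were called lower than wild type and the rest were not called.

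Among detoxification genes, 4 of 30 genes of xenobiotic metabolism rose and none fell, which is 13.3% of them, where 2.15% of all genes rose. Ces1f, a carboxylesterase, stood at 11.52, 12.47, 12.40 and 11.28 in Double-Het and 10.43, 10.29, 9.78, 11.13 and 9.96 in Falcor-/-, a difference of 1.60 (SE 0.31, adjusted p = 0.00755) with no overlap. Cyp1b1, a cytochrome P450, rose by 1.26 (adjusted p = 0.0193), the aldehyde oxidase Aox3 by 0.76 (adjusted p = 0.00448) and the glucuronosyltransferase Ugt1a6a by 0.79 (adjusted p = 0.0174). The count was 2 without Double-Het replicate 17 and 8 without Falcor-/- replicate 9. Of 33 genes of glutathione metabolism and the oxidant-responsive Nrf2 pathway, Nqo1, Gss and Srxn1 rose and Gpx3 and Sod3, both secreted enzymes, fell. These are 15.2% of the list, beside 5.15% called over all genes. Gss passed narrowly (adjusted p = 0.0492) and lost its call in 7 of 9 fits that left out a library. Nqo1, a quinone reductase, differed by 1.04 (SE 0.22, adjusted p = 0.0103) and Gpx3 by -2.10 (SE 0.35, adjusted p = 0.00365). Without Falcor-/- replicate 9, 5 of this list rose; without any 1 of 6 other libraries, 2 rose.

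Transcription factors of the lung that passed the test changed in both directions. In this list 24.1% were called, beside 5.15% of all genes. Of 29 tested, Cebpa (0.28), Ehf (0.51), Grhl2 (0.36) and Sox9 (0.70) rose, while Foxa2, Klf4 and Tbx4, the last a factor of lung mesenchyme, fell. Cebpa, which type 2 cells use to mature, stood at 15.66, 15.51, 15.40 and 15.49 in Double-Het and 15.23, 15.35, 15.36, 15.11 and 15.11 in Falcor-/-, without overlap. Ehf, an ETS factor of airway epithelium, differed by 0.51 (SE 0.11, adjusted p = 0.0144). Grhl2 and Sox9 passed narrowly and each lost its call in 7 of 9 fits that left out a library, and the number of risen factors was 1 without Double-Het replicate 15 or 17 or Falcor-/- replicate 10, 2 without Double-Het replicate 16 or 18 or Falcor-/- replicate 9 and 6 without Falcor-/- replicate 7.

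Several of the largest rises are genes with a lower mean in Falcor-/- than in each of the 3 other genotypes. Zfhx4, a zinc finger factor, stood at 8.18, 7.12, 8.26 and 8.91 in Double-Het and 5.96, 6.31, 6.01, 5.82 and 5.41 in Falcor-/-, a difference of 2.22 (SE 0.31, adjusted p = 0.00233). Il1f9, an IL-36 cytokine of epithelia, stood at 8.18, 8.86, 8.55 and 8.46 in Double-Het and 6.54, 5.81, 6.38, 7.30 and 7.12 in Falcor-/-, a difference of 1.89 (SE 0.34, adjusted p = 0.00475). Ooep, best known from oocytes, differed by 2.61 (SE 0.42, adjusted p = 0.00332) and Rec8, a meiotic cohesin, by 1.73 (SE 0.37, adjusted p = 0.0117). The libraries of these 4 genes did not overlap and no leave-one-out fit lost their calls. Wild-type means were 6.31 for Zfhx4, 7.50 for Il1f9, 7.41 for Ooep and 9.64 for Rec8, against Falcor-/- means of 5.90, 6.63, 5.89 and 8.14. Foxa2+/- means were 8.32, 8.73, 7.33 and 9.54. Against wild type, Zfhx4 was called higher in Double-Het (1.81, adjusted p = 0.000775) and Foxa2+/- (2.01, adjusted p = 0.000844), but not called in Falcor-/- (-0.41, adjusted p = 0.323). Il1f9 was called only in Foxa2+/- (1.23, adjusted p = 0.0371). Ooep and Rec8 were called only in Falcor-/-, at -1.52 (adjusted p = 0.0299) and -1.51 (adjusted p = 0.0198).

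Raet1e, a ligand of the natural killer receptor NKG2D, had the largest rise after Falcor. Its levels were 8.35, 10.02, 7.94 and 9.97 in Double-Het and 6.45, 3.42, 4.33, 2.59 and 2.81 in Falcor-/-, a difference of 5.15 (SE 1.31, adjusted p = 0.0296), and 6 of 9 fits that left out a library lost the call, with differences from 4.82 to 5.78. Wild-type libraries alone stood at 6.82, 9.95, 6.60, 8.19 and 2.22, a range wider than this difference. Skint3, of an immunoglobulin-like family of epithelial surface proteins, differed by 2.17 (SE 0.41, adjusted p = 0.00605) and held in all 9 fits. Both belong to families with close copies, so reads may be shared. Abcc8, a subunit of a potassium channel, differed by 2.35 (adjusted p = 0.0395), and Vnn3, a pantetheinase, by 1.70 (adjusted p = 0.0402), and each lost its call in 6 of the 9 fits, among them those without any of Double-Het replicates 15, 16 or 17 or Falcor-/- replicate 10. Itih5, a hyaluronan-binding protein, differed by 1.98 (adjusted p = 0.021) and lost its call without Double-Het replicate 15 or 17 or Falcor-/- replicate 10. Fer1l6 and the phospholipid flippase Atp10b differed by 1.84 (adjusted p = 0.0187) and 1.64 (adjusted p = 0.0138) and lost theirs without Double-Het replicate 17.

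Phf24 had the largest fall in relation to its error. Its levels were 7.80, 7.63, 7.54 and 7.36 in Double-Het and 11.12, 11.89, 11.25, 10.82 and 11.32 in Falcor-/-, a difference of -3.70 (SE 0.25, adjusted p = 3.11e-07). Foxa2+/- libraries stood at 9.91, 10.78, 10.92 and 10.79 and wild-type libraries at 12.29, 12.65, 11.97, 11.43 and 11.69. All 14 libraries of the other genotypes thus lay above the highest Double-Het library. The Foxa2+/- libraries were also lower than wild type, with a difference of -1.41 (adjusted p = 0.00211). With the endothelial mean as a covariate the difference was -3.82 (SE 0.42, adjusted p = 0.000774). Phf24 encodes a zinc finger protein known mainly from brain and lies on chromosome 4, not on the chromosome of either targeted gene.

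Vcp and its copy Vcp-rs, chosen after their values were seen because they change in opposite directions, also set the Double-Het libraries apart. Vcp, a chaperone ATPase, lies beyond the next tested gene from Phf24 on chromosome 4, and Vcp-rs is a pseudogene on the X chromosome whose name marks it as Vcp-related. Vcp-rs stood at 9.81, 9.52, 9.57 and 9.41 in Double-Het and 13.31, 12.45, 13.28, 12.48 and 12.46 in Falcor-/-, a difference of -3.22 (SE 0.24, adjusted p = 1.15e-06). Vcp was higher in Double-Het, at 14.41, 14.42, 14.45 and 14.31 against 13.75, 13.99, 13.71, 14.24 and 14.11, a difference of 0.44 (SE 0.11, adjusted p = 0.0279) that lost its call without Double-Het replicate 15, 16 or 17 or Falcor-/- replicate 6. In Falcor-/- replicates 6 and 8, Foxa2+/- replicate 14 and wild-type replicate 5, Vcp-rs was between 13.28 and 13.37 and Vcp between 13.71 and 13.75, whereas in the other 10 libraries of these 3 genotypes Vcp-rs lay between 12.35 and 12.55 and Vcp between 13.95 and 14.24. Libraries with more Vcp-rs thus had less Vcp. Reads can be shared between the 2, so neither level alone can be read as that gene's expression, and the cause of the separate levels was not tested.

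Other genes near Phf24 on chromosome 4 were called as well, and this stretch was likewise chosen after its values were seen. From Dnaic1 to Fam166b, 22 genes were tested in order along the chromosome and 6 were called, 4 lower and 2 higher, or 27.3% beside 5.15% of all genes; both end genes were picked because they were called. Enho, a peptide hormone gene, stood at 7.23, 7.12, 6.0 and 6.59 in Double-Het and 10.18, 7.89, 8.51, 9.19 and 9.08 in Falcor-/-, a difference of -2.23 (SE 0.38, adjusted p = 0.00398) with no overlap. Dnaic1, a dynein chain of cilia, differed by -0.64 (adjusted p = 0.021), Fam166b by -1.04 (adjusted p = 0.00893) and the predicted gene Gm10600 by 2.26 (adjusted p = 0.0395). Dnajb5 and Fancg, which flank Vcp, differed by -0.21 and -0.12 and did not pass. Wild-type libraries stood at 9.36, 9.62, 9.12, 9.68 and 10.28 for Enho, highest in replicate 5. Foxa2+/- libraries stood at 9.13, 9.26, 9.26 and 10.06, highest in replicate 14. These replicates and Falcor-/- replicate 6 were also high for Vcp-rs. Falcor-/- replicate 8, likewise high for Vcp-rs, went the other way, with Enho at 8.51, below replicates 9 and 10.

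A second pair of copies, Ftl1 and Ftl2-ps, differed mainly through the Falcor-/- libraries and was also chosen after its values were seen. Ftl1 encodes the ferritin light chain and Ftl2-ps is a pseudogene of that family. Ftl2-ps stood at 13.91, 12.76, 13.80, 13.48 and 13.10 in Falcor-/- and at 6.28, 5.81, 12.64 and 8.17 in Double-Het, a difference of -5.19 (SE 0.93, adjusted p = 0.00475). All Foxa2+/- and wild-type libraries lay between 4.43 and 6.06, and Double-Het replicate 17 was nearly as high as the lowest Falcor-/- library. Ftl1 stood at 14.80, 15.60, 14.60, 15.92 and 15.65 in Falcor-/- and 16.13, 16.24, 15.62 and 16.08 in Double-Het, where replicate 17 was lowest, and its difference of 0.70 (adjusted p = 0.0655) did not pass. Here too reads can be shared, and the cause was not tested.

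Aass, an enzyme of lysine breakdown chosen after its values were seen, showed 2 separate levels within Double-Het. Its levels were 11.40, 14.18, 11.34 and 14.11 in Double-Het and 14.81, 14.05, 13.90, 14.10 and 13.93 in Falcor-/-. Double-Het replicates 16 and 18 were thus at the Falcor-/- level and replicates 15 and 17 near Foxa2+/-, at 11.38, 11.51, 11.40 and 11.42. The difference of -1.40 (adjusted p = 0.123) did not pass, with an SD of 1.60 within Double-Het. Wild-type libraries stood at 11.63, 11.45, 10.85, 10.01 and 10.58. The libraries high for Aass within Double-Het, 16 and 18, were not the library high for Ftl2-ps, 17.

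**Figure D5:**
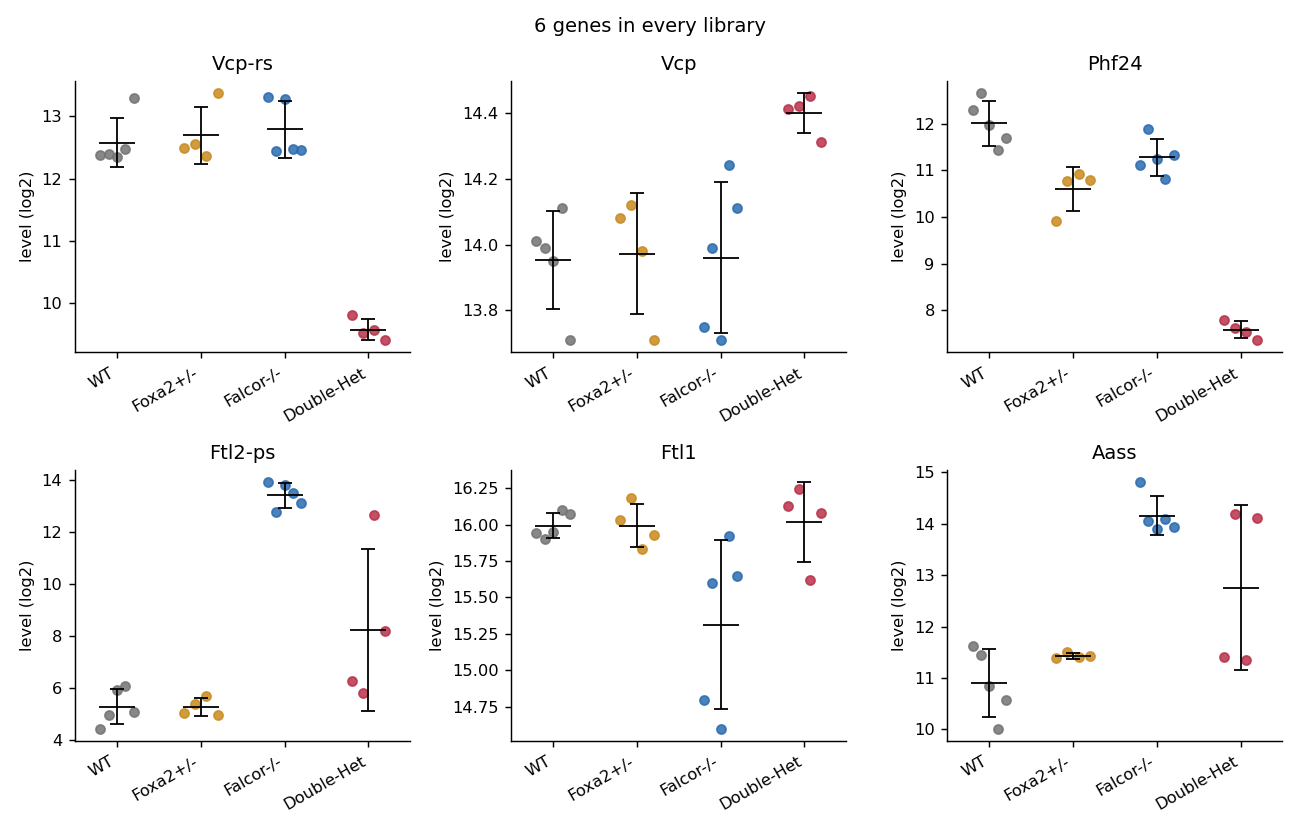
Log2 levels of Vcp-rs, Vcp, Phf24, Ftl2-ps, Ftl1 and Aass in every library, by genotype; points are libraries, dashes are group means and bars are 1 SD. The vertical axes do not start at 0. Vcp-rs and Phf24 are lowest in the 4 Double-Het libraries, Ftl2-ps is high in the 5 Falcor-/- libraries and Double-Het replicate 17, and Aass is split within Double-Het.

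Alveolar and airway cell markers other than mucous genes showed few calls. The shares called, 5.26% of type 2 genes and 4.65% of ciliated cell genes, lay near the 5.15% of all genes. Of 18 type 1 genes none passed, while 11 had an unadjusted p below 0.05 and the median was -0.45; the receptor Ager, with -0.43 (adjusted p = 0.0508), came nearest. The number called lower was 3 without Falcor-/- replicate 7 and 1 without Double-Het replicate 15 or Falcor-/- replicate 6 or 8. Of 19 type 2 genes only Muc1 was called, at 0.39 (adjusted p = 0.0484), and 7 of 9 leave-one-out fits lost it, while 2 genes of the list were called without Falcor-/- replicate 7 or 8. Of 24 club cell genes none passed, though 23 were positive, 11 had an unadjusted p below 0.05 and the median was 0.48; Gabrp and Fmo2 had the smallest p, at 0.82 (adjusted p = 0.0655) and 0.69 (adjusted p = 0.0768). Without Falcor-/- replicate 9, 9 club cell genes were called higher, and without replicate 7, 1 was. The secretoglobin Scgb1a1 differed by 0.04 (95% confidence interval -0.24 to 0.32). Of 43 ciliated cell genes, Gmnc, a regulator of multiciliated cells, was higher by 1.39 (adjusted p = 0.0247) and Dnaic1 lower, while the median was -0.02 and the ciliary factor Foxj1 differed by -0.16. The call of Gmnc was lost without Double-Het replicate 16 or 17 or Falcor-/- replicate 10, and that of Dnaic1 without Double-Het replicate 17 or 18 or Falcor-/- replicate 6.

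Immune and housekeeping lists held few calls. Of 25 macrophage genes none passed and 2 had an unadjusted p below 0.05, with library means of 10.01, 10.72, 9.96 and 11.02 in Double-Het and 10.81, 11.51, 9.73, 12.0 and 10.73 in Falcor-/-, so that replicates 7 and 9 of Falcor-/- stood above the rest. Of the 25 macrophage differences 21 were negative, with a median of -0.35 and 95% confidence intervals of up to 2.03 on each side. Of 7 granulocyte genes, 6 differences were negative and Mmp9 was called lower (-1.91, adjusted p = 0.0395), a call lost in 5 of 9 leave-one-out fits. Of 17 MHC class I presentation genes Tap2 was called lower. These shares are 14.3% and 5.88%, beside 5.15% of all genes. None of the 12 MHC class II genes passed, adjusted or unadjusted. In the ribosomal list 0 of 49 passed and 3 had an unadjusted p below 0.05, yet 45 of the 49 differences were negative and the median was -0.15. None of 50 oxidative phosphorylation genes, 34 cell cycle genes and 31 proteasome genes passed, and 1, 3 and 0 of them had an unadjusted p below 0.05. Of 37 splicing and RNA processing genes, Neat1, a nuclear long non-coding RNA, and Luc7l2 rose, and these 5.41% lie near the 5.15% called over all genes. Neat1 stood at 16.95, 16.98, 16.82 and 17.09 in Double-Het and 16.21, 16.31, 16.21, 16.41 and 16.28 in Falcor-/-, a difference of 0.67 (SE 0.10, adjusted p = 0.0026).

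Stress and cytokine lists held from 1 to 4 calls each. Called were 18.2% of the unfolded protein response list and 10.0% of the heat shock list, beside 5.15% of all genes. For type 2 and epithelial cytokines the share was 13.3%, and for interferon genes 2.7%, below that of all genes. In the unfolded protein response list of 22 genes, Ern2 rose and Ddit3, Atf4 and Asns, which belong to the amino acid stress arm, fell, with differences of -0.51, -0.37 and -0.41; 0 of these 3 passed without Double-Het replicate 17 or 18 or Falcor-/- replicate 10. In the heat shock list of 20, Dnajb1 and Bag3 were called lower, and both calls were lost without any 1 Double-Het library. Alox15, a lipoxygenase of type 2 inflammation, rose by 2.0 (adjusted p = 0.0199), a call lost without Double-Het replicate 15, 16 or 17, while Postn fell. Irf1 was the only called gene of 37 in the interferon list, at -0.40 (adjusted p = 0.0279), and lost its call without Double-Het replicate 16, 17 or 18 or Falcor-/- replicate 10.

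Both genotypes were also set beside wild type. Against wild type, 2254 genes (14.8%) were called in Double-Het and 1444 (9.47%) in Falcor-/-, and both comparisons share the 5 wild-type libraries. For Cldn5 the difference from wild type was -2.93 in Double-Het (adjusted p = 7.5e-05) and -0.44 in Falcor-/- (adjusted p = 0.367). For Edn1 it was -3.04 (adjusted p = 4.07e-06) and -0.45 (adjusted p = 0.189). For Rbpj it was -0.17 (adjusted p = 0.283) and -0.82 (adjusted p = 0.000209). Rbpj was thus called against wild type in Falcor-/-, and Cldn5 and Edn1 in Double-Het, and the direct comparison of the 2 genotypes passed for all 3. For Neat1 the values were 0.70 (adjusted p = 0.000151) and 0.02 (adjusted p = 0.87).

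The forkhead-like motif TGTTTAC was searched in the windows of all tested genes with a RefSeq promoter. Of 11131 windows, 2.19% held it on either strand, as did 10 of 220 windows of genes called higher (4.55%) and 5 of 315 of genes called lower (1.59%). For any of the 3 motifs the shares were 6.54%, 9.55% and 6.35%. A match is a description of the letters only. Beside Falcor, the following called-higher genes held TGTTTAC, shown with up to 10 bases on each side, 5′ to 3′ on the gene's strand of GRCm38.p6, with the match in capitals.
Atp2c1, chr9:105521399-105521425, minus strand: atcgctgggcTGTTTACattcttcggg
Atp6v1b1, chr6:83742909-83742935, plus strand: ccagcttcccTGTTTACagtcaacctg
Cd177, chr7:24760539-24760561, minus strand: gaagagTGTTTACccctgtttct
Cnnm3, chr1:36511743-36511769, plus strand: ccgcgccgctTGTTTACtccccggcgc
Ngef, chr1:87573922-87573948, minus strand: acccagcaagGTAAACAcccagacagg
Rbp4, chr19:38125546-38125571, minus strand: aaatgcatgGTAAACActtggcaatt
Sox12, chr2:152398137-152398163, minus strand: ggcacctcggTGTTTACacggggcggc
Vars2, chr17:35667763-35667789, minus strand: agatgtatttTGTTTACacaccgggat
Zfp551, chr7:12422578-12422604, minus strand: ttctgaggttTGTTTACctaactggaa
Of these, Cd177 rose by 1.88, Atp6v1b1, a proton pump subunit, by 1.30 and Rbp4, the retinol carrier, by 0.77, and Ngef and Rbp4 hold the match on the reverse strand. These 9 genes were selected for holding the motif, after their values were seen.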

How the data were processed

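RNA-seq values were deposited by the authors as log2 levels for 15544 mouse genes in 18 libraries. STAR, limma and mouse build mm9 are named in the submitters' processing notes; the counter, annotation, strand setting and versions are not stated there. The values have nearly 1 distribution in all libraries (largest gap at the same rank 0.05 over the top 90% of ranks), as quantile normalization gives, so depth is unknown, no counting error can be given and a shift common to most genes would be hidden.

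Names came from GENCODE vM21 by identifier: 14994 matched and 550 have no name. Promoter windows came from the RefSeq table for GRCm38.p6, matched by symbol for 11131 of 14739 named tested genes. The authors' build differs, so GENCODE positions were used only for chromosome, order along it and the choice of promoter start sites.

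With limma 3.58.1 (R 4.3.3), the mean of each genotype was estimated from all 18 libraries, with variances moderated along the mean level (residual degrees of freedom 14, after moderation 17), on the 15249 genes with a mean of 6 or more. P-values are 2-sided and adjusted by Benjamini-Hochberg over these genes; a call is an adjusted p below 0.05, and "rose" or "fell" is Double-Het relative to Falcor-/-. For single genes all 126 regroupings of 4 against 5 libraries gave an exact permutation p. The fit was also run on simulated data with independent noise in each gene. Those data hold no shift shared by many genes between libraries, so that run cannot check the calls against such shifts.

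Named genes are the 2 targets, the 15 largest rises and 15 largest falls among called genes whose libraries do not overlap, the 10 called genes with the smallest p, and per list up to 3 called members in each direction (2 members with the smallest p where none was called; all where up to 5 were called), leaving out unnamed and predicted genes, pseudogenes, immune receptor segments and sex genes from the first 3. The genotypes compared, the 46 gene lists and this rule were chosen with earlier results of these data known. Alternatives changed the filter, the libraries fitted, the trend, library weights, centring and an endothelial covariate, and left out each library.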

Additional observations from a re-analysis of the deposited data

Results flagged for a closer look

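In groups of 4 or 5 libraries, the highest or lowest value was checked for a gap to the nearest other library that is large for the group's range (Dixon's 95% critical value). Of 254 groups checked, which are the 2 genotypes for each of 127 named genes, 6 had such a gap, where chance gives about 1 in 20. All 6 were in Falcor-/-, and 4 of them were replicate 10, the library with the highest endothelial and mesenchymal means. In replicate 10, Edn1 stood at 11.51 where the other 4 libraries lay between 10.51 and 10.76, Snai1 at 8.84 against 7.85 to 8.13, Gjc1 at 9.46 against 8.18 to 8.39, and Cdkn1a, a cell cycle inhibitor, at 13.47 against 13.01 to 13.11. Replicate 9 stood apart for Gss, an enzyme of glutathione synthesis, at 12.47 against 11.55 to 11.77. Replicate 7 stood apart for Kdm5d, a Y-linked demethylase, at 11.67 against 11.05 to 11.19. The calls of Edn1, Snai1 and Gjc1 held without replicate 10. That of Gss (adjusted p = 0.0492) held without replicate 9 but was lost in 7 of the 9 fits that left out a library.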

How the results depend on the processing

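No paired analysis was possible because the replicate numbers 1 to 18 do not repeat between the genotypes. Falcor kept its direction and call under every alternative run. The 785 calls (328 higher, 457 lower) became 342 (82 higher, 260 lower) in the fit of the 2 genotypes alone, 312 of them shared, where the share of lower calls was 76.0% against 58.2%. With library weights 1125 were called (510 higher, 615 lower). With the endothelial mean as a covariate 4 were called (1 higher, 3 lower); this mean is itself lower in every Double-Het library, so the covariate also takes up part of the genotype difference. Leaving out 1 library gave 412 to 1233 calls, 125 to 659 higher and 287 to 590 lower. Counts without a filter (804), at a mean of 8 or more (640), without the trend (709) and after centring (783) stayed within 1.5 times. Foxa2 lost its call in the fit of the 2 genotypes alone (-0.37, adjusted p = 0.19), without the trend (-0.37, adjusted p = 0.0596), with library weights (-0.26, adjusted p = 0.139) and with the covariate (-0.71, adjusted p = 0.19), over a range of adjusted p from 0.0153 to 0.19; leaving out single libraries gave -0.45 to -0.29. The causes were not tested.

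Signs turned mainly with the covariate: Cd93 0.24, Cav1 0.18, Piezo2 0.15, Hey1 0.12, Nkd2 0.35, Gpm6a 0.15, Mrps18a 0.038, Psmd11 -0.037, Tek 0.043, Tie1 0.11, Ptprb 0.011, Sox18 0.30, Calcrl 0.24, Icam2 0.017, Ltbp1 0.27, Ltbp2 0.022, Smad6 0.21, Dll4 0.39, Foxa1 -0.047, Scgb1a1 -0.13, Epcam -0.17, Nkx2-1 -0.032, Agr2 -0.030, Hopx 0.005 and Kdr 0.59, none of them called there. The near-0 differences of Scgb1a1 and Epcam ranged from -0.049 to 0.154 and from -0.082 to 0.1 when single libraries were left out. Of the 125 other named genes, 95 were called, and 93 of these lost their call with the covariate, 44 in the fit of the 2 genotypes alone, 10 without the trend and 4 with library weights. Unknown depth leaves the precision of low genes such as Higd1b and Raet1e to the spread between libraries alone.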
